A study of Mus musculus with 2 samples.

Results

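The 39 Hox genes of the mouse are described here, chosen as every protein-coding gene of GENCODE release M21 whose symbol is Hoxa, Hoxb, Hoxc or Hoxd followed by a number, out of 21853 protein-coding genes on named chromosomes. They form 4 clusters on mm10, the build of the files: Hoxa with 11 genes (chr6:52155590-52260880), Hoxb with 10 (chr11:96194316-96368256), Hoxc with 9 (chr15:102921103-103036852) and Hoxd with 9 (chr2:74668310-74765142). EP300 was mapped in them by chromatin immunoprecipitation and sequencing (ChIP-seq) of whole stomach from newborn mice, at postnatal day 0, of strain B6NCrl. The study has 1 group of 2 libraries, labelled as biological replicates 1 and 2 but with the same biosample and donor label, and the labels name no allele or treatment and give the sex as not collected. The files are 5 lists of peaks, and a library's depth is unknown because they hold no read counts. With 1 group there is no control tissue or stage, so the comparisons below lie between Hox genes, between clusters and with all protein-coding genes.

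Hox genes encode homeodomain transcription factors that give positions along the anterior to posterior body axis their identity. Within a cluster they lie in the order in which they act along that axis, with the anterior genes (low paralogue numbers) at the 3′ end, and retinoic acid is known to switch on the 3′ genes early in development. Silent Hox chromatin is held by Polycomb complexes, active Hox genes are maintained by trithorax proteins, and Hox proteins bind DNA with cofactors of the PBX, MEIS and PKNOX families. EP300 is a histone acetyltransferase and co-activator that is found at active promoters and enhancers. In the gut, anterior and central Hox genes are known from the mesenchyme of the stomach and foregut, and posterior genes from the hindgut. Groups 1 to 8 are called anterior below (23 genes) and groups 9 to 13, the class related to fly Abdominal-B, posterior (16 genes).

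In short, EP300 summits lay mainly in the anterior parts of Hoxa, Hoxb and Hoxc, at moderate ranks, while the posterior parts and the whole of Hoxd held few. All 23 anterior genes and 8 of the 16 posterior genes had a summit of the pooled list within 5 kb of a start. A summit is the base of highest signal in a peak, and a start is the 5′ end of any protein-coding transcript of a gene. The signal of a peak is the value given by the authors' peak caller, and rank 1 is the highest signal of a list. The lists of replicate 1, replicate 2 and the pooled reads hold 300000 peaks each, with the lowest signals at 4.74, 4.54 and 7.67, so signals are set side by side only within a list. The authors' sets filtered by the irreproducible discovery rate (IDR), which keeps peaks whose ranks repeat between replicates, hold 7737 peaks (optimal) and 6974 peaks (conservative).

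The sequences around 5 of the Hox summits named below show what the peaks cover. Each is a summit with the 50 bases on either side, on the plus strand of GRCm38.p6 (the RefSeq sequence of mm10), with matches to the motifs searched in capitals. The first belongs to the conservative peak beside the Hoxc cluster, and the next 3 to the strongest pooled summits inside Hoxa, Hoxc and Hoxd. The last, at Hoxb3, was added after its values were seen because it holds a retinoic acid response element of the DR5 kind.
Hoxc4 flank, chr15:103040088-103040188: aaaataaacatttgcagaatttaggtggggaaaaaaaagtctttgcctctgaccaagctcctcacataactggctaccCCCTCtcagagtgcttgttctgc
Hoxa3 intron near Hoxa2, chr6:52172863-52172963: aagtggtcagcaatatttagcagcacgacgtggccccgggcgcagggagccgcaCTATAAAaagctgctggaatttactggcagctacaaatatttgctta
Hoxc8 downstream, chr15:102994206-102994306: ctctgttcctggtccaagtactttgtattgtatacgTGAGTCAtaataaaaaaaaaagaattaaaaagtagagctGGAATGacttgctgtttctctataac
Hoxd8 upstream, chr2:74704087-74704187: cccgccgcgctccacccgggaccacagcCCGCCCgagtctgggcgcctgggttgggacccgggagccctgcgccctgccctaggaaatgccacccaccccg
Hoxb3 intron, chr11:96341211-96341311: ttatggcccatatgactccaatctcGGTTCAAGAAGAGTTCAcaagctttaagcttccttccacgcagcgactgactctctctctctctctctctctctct
The capitals mark the short core CCCTC of the CTCF motif at the Hoxc4 summit and a CDX motif (TTTATNG), read on either strand, at the summit near Hoxa2. At Hoxc8 they mark an AP-1 motif (TGANTCA) and a TEAD motif (GGAATG), at Hoxd8 the KLF and SP motif GGGCGG, and at Hoxb3 the DR5 element. Such matches describe letters only, and their shares beside all strong summits are given below. The Hoxd8 window is the richest of the 5 in bases G and C, at 77.2%, and the Hoxc8 window the poorest, at 32.7%.

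Only 1 optimal peak lay in the 4 clusters with 50 kb on each side. It stood 202 bp upstream of Hoxb5, a gene known from the enteric nervous system, within the antisense gene Hoxb5os. Its signal was 24.5 in the pooled list (rank 7399), 17.4 in replicate 1 (rank 4315) and 8.46 in replicate 2 (rank 37231), with an IDR score of 572 on the authors' scale. This peak was thus much further up the list in replicate 1 than in replicate 2, and it was not in the conservative set. Hoxb6, whose nearer start lies 4139 bp away, shares it, so that 2 of the 39 Hox genes (5.13%) had an optimal summit within 5 kb, against 14.0% of all protein-coding genes. Within 50 kb the count was 8 of 39 (20.5%), against 36.4% of all protein-coding genes. The 8 were all Hoxb genes, from Hoxb2 to Hoxb9, and all had this peak alone in reach.

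The conservative set held 3 other peaks in the cluster windows, none of them in the optimal set, of which those near Hoxa4 and Hoxc4 are described. The peak near Hoxa4 lay 5721 bp upstream of it, in an intron of Hoxa3 and within the antisense gene Hoxaas3. It had a signal of 22.5 in the pooled list (rank 9340), 14.7 in replicate 1 (rank 7103) and 11.6 in replicate 2 (rank 11980), with a score of 602, and thus stood high in each library as well as in the pooled list. The peak 5743 bp downstream of the nearest Hoxc4 start, just past the 3′ end of the Hoxc cluster (chr15:103039858-103040417), was the strongest pooled peak of all 4 windows. Its signal was 29.1 (rank 4751) in the pooled list, 19.3 (rank 3159) in replicate 1 and 11.0 (rank 14126) in replicate 2, with a score of 650.

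Of the 39 members 1 had a conservative summit within 5 kb (2.56%, against 13.4% of all protein-coding genes). That the conservative set is not a subset of the optimal set is general in these files: 2233 of the 6969 distinct conservative intervals were not in the optimal set. Being in an IDR set and being high in the pooled list were also not the same at the Hox clusters. Of the pooled summits inside the clusters 3 ranked within 7737, the size of the optimal set, and only that of Hoxb5 was in either IDR set, whereas over the whole list 5681 of the 7737 strongest pooled peaks were in the optimal set.

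Summits of any rank were found near more of the anterior than of the posterior genes in each list. Of the 39 genes, 31 had a pooled summit within 5 kb (79.5%, against 72.6% of all protein-coding genes), 23 of 23 anterior and 8 of 16 posterior. The 8 posterior genes without one were Hoxa11, Hoxb9, Hoxc9, Hoxc10, Hoxc11, Hoxc12, Hoxd9 and Hoxd10. In replicate 1 the count was 31, with 22 anterior (95.7%) and 9 posterior (56.2%), against 76.2% of all genes. In replicate 2 it was 33, with 21 anterior (91.3%) and 12 posterior (75.0%), against 73.8%, so that the posterior share there was at the background. The lists are long, so most genes of any kind have some summit nearby, and the share over all 39 genes was close to that background in each list.

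Among the 50000 strongest summits of a list, the anterior genes were above the background and the posterior genes below it. In the pooled list 13 of 39 Hox genes had such a summit within 5 kb (33.3%, against 39.3% of all protein-coding genes), 13 of 23 anterior (56.5%) and 0 of 16 posterior. In replicate 1 there were 20 (51.3%, against 41.3%), 18 of 23 anterior (78.3%) and 2 of 16 posterior, namely Hoxb9 and Hoxd13. In replicate 2 there were 16 (41.0%, against 37.9%), 15 of 23 anterior (65.2%) and 1 of 16 posterior, namely Hoxb13. The posterior exceptions thus differed between the libraries. The genes just past the limit in the pooled list were Hoxa6 at rank 51329 and Hoxa9 at rank 53876, and the last gene within it was at rank 31271. At the limit of 7737, 4 anterior genes and 0 posterior genes had a summit in each list, 10.3% of the 39, against 15.9% of all genes in the pooled list, 16.6% in replicate 1 and 15.5% in replicate 2.

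The strongest summit within 5 kb had a median signal of 14.7 (median rank 31271) over the anterior genes and 7.83 (rank 285456) over the posterior genes in the pooled list, with 10.9 (rank 96799) over all protein-coding genes. Genes without a summit entered these medians at the lowest signal of the list. The medians were 9.41, 4.93 and 7.21 in replicate 1, and 8.80, 6.01 and 6.58 in replicate 2, in the same order. The anterior genes were thus above and the posterior genes below the median of all genes in all 3 lists. The difference between anterior and posterior medians was 0.91 on the log2 scale in the pooled list, 0.93 in replicate 1 and 0.55 in replicate 2. Within 1 kb of a start, where fewer genes of either class had a summit, it was 0.27 in the pooled list. No test was run, since neighbouring Hox genes share summits: the 31 pooled summits that are strongest for a member come from 25 distinct peaks.

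**Figure D1:**
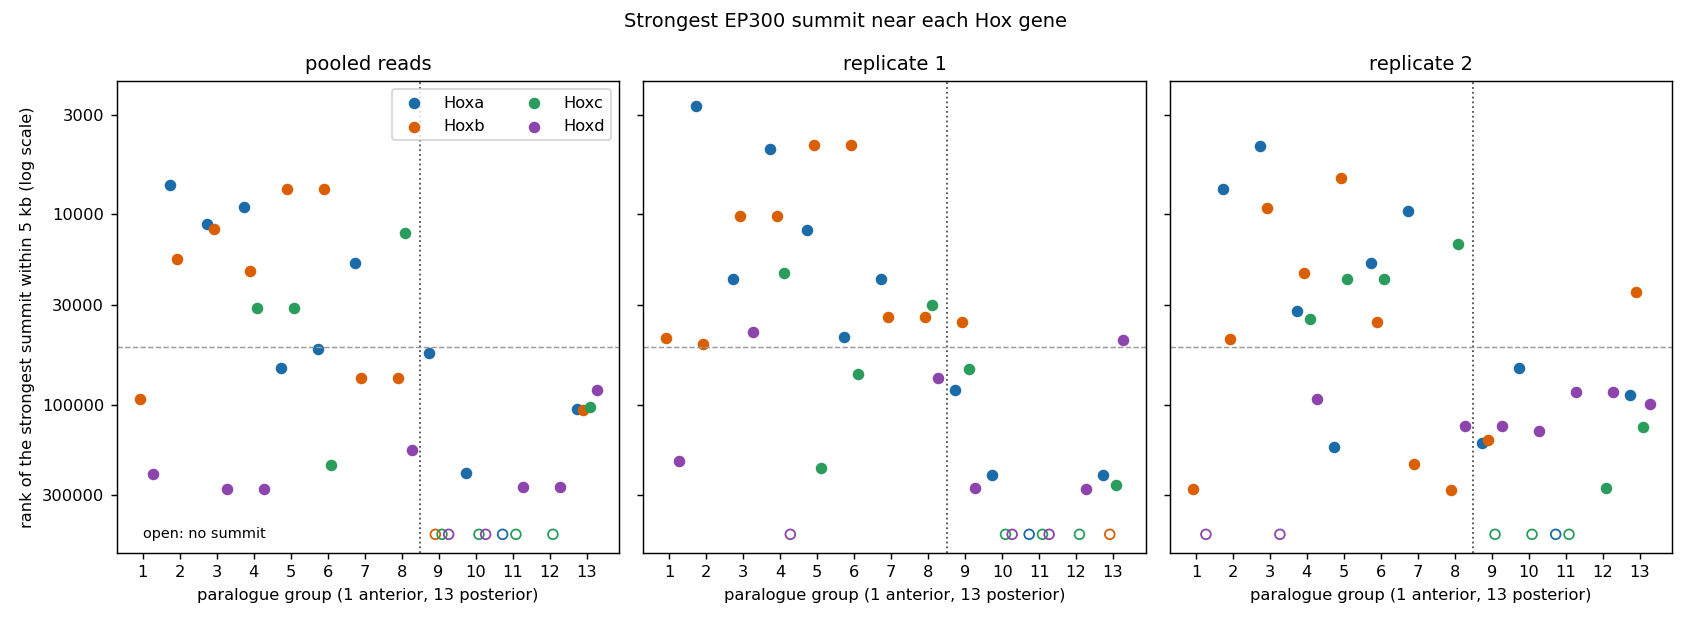
Rank of the strongest EP300 summit within 5 kb of each Hox gene (log scale, strong at the top) by paralogue group, in the pooled list and in each library; colours mark the clusters, open circles genes without a summit (1 Hoxa gene is not drawn), the dotted line the border of groups 8 and 9, and the dashed line rank 50000. In the pooled list no gene of groups 9 to 13 lies above the dashed line, and the 4 Hoxd genes of groups 1 to 8 lie below it.

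Within the anterior class, groups 1 to 3 had a median pooled signal of 19.1 (8 genes) and groups 4 to 8 one of 14.7 (15 genes). In replicate 1 these were 9.45 and 9.41, and in replicate 2 they were 10.3 and 8.80, so the order of the subclasses was slight in replicate 1. Group 13 was not the lowest of the posterior groups. Its 4 genes (Hoxa13, Hoxb13, Hoxc13 and Hoxd13, known from limb tips, hindgut, prostate and hair) all had a pooled summit within 5 kb, with signals from 10.6 to 11.3. These summits lay 1432 to 4549 bp from the start, and none was within 1 kb.

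The summits crowded around anterior genes, and the strongest summit near a Hox gene mostly lay over 1 kb from its start. The anterior genes had a median of 3 pooled summits around 1 start and a maximum of 8, the posterior genes a median of 0.500 and a maximum of 4, and all protein-coding genes a median of 2. At least 5 pooled summits lay within 5 kb of 1 start for 11 of 39 Hox genes (28.2%, against 10.2% of all genes), all of them anterior. A pooled summit within 1 kb of a start was found for 16 of 39 (41.0%, against 46.9% of all genes), 14 of 23 anterior (60.9%) and 2 of 16 posterior (12.5%), so that the anterior share was above that of all genes and the posterior share below it. In each of the libraries the anterior share was 65.2%, with 50.6% of all genes in replicate 1 and 45.9% in replicate 2. Of the 31 genes with a summit within 5 kb, the strongest lay within 1 kb for 7 (22.6%), whereas over all genes this was so for 47.5% of those with a summit. In replicate 1 these shares were 25.8% and 49.1%, and in replicate 2 they were 15.2% and 44.8%.

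**Figure D2:**
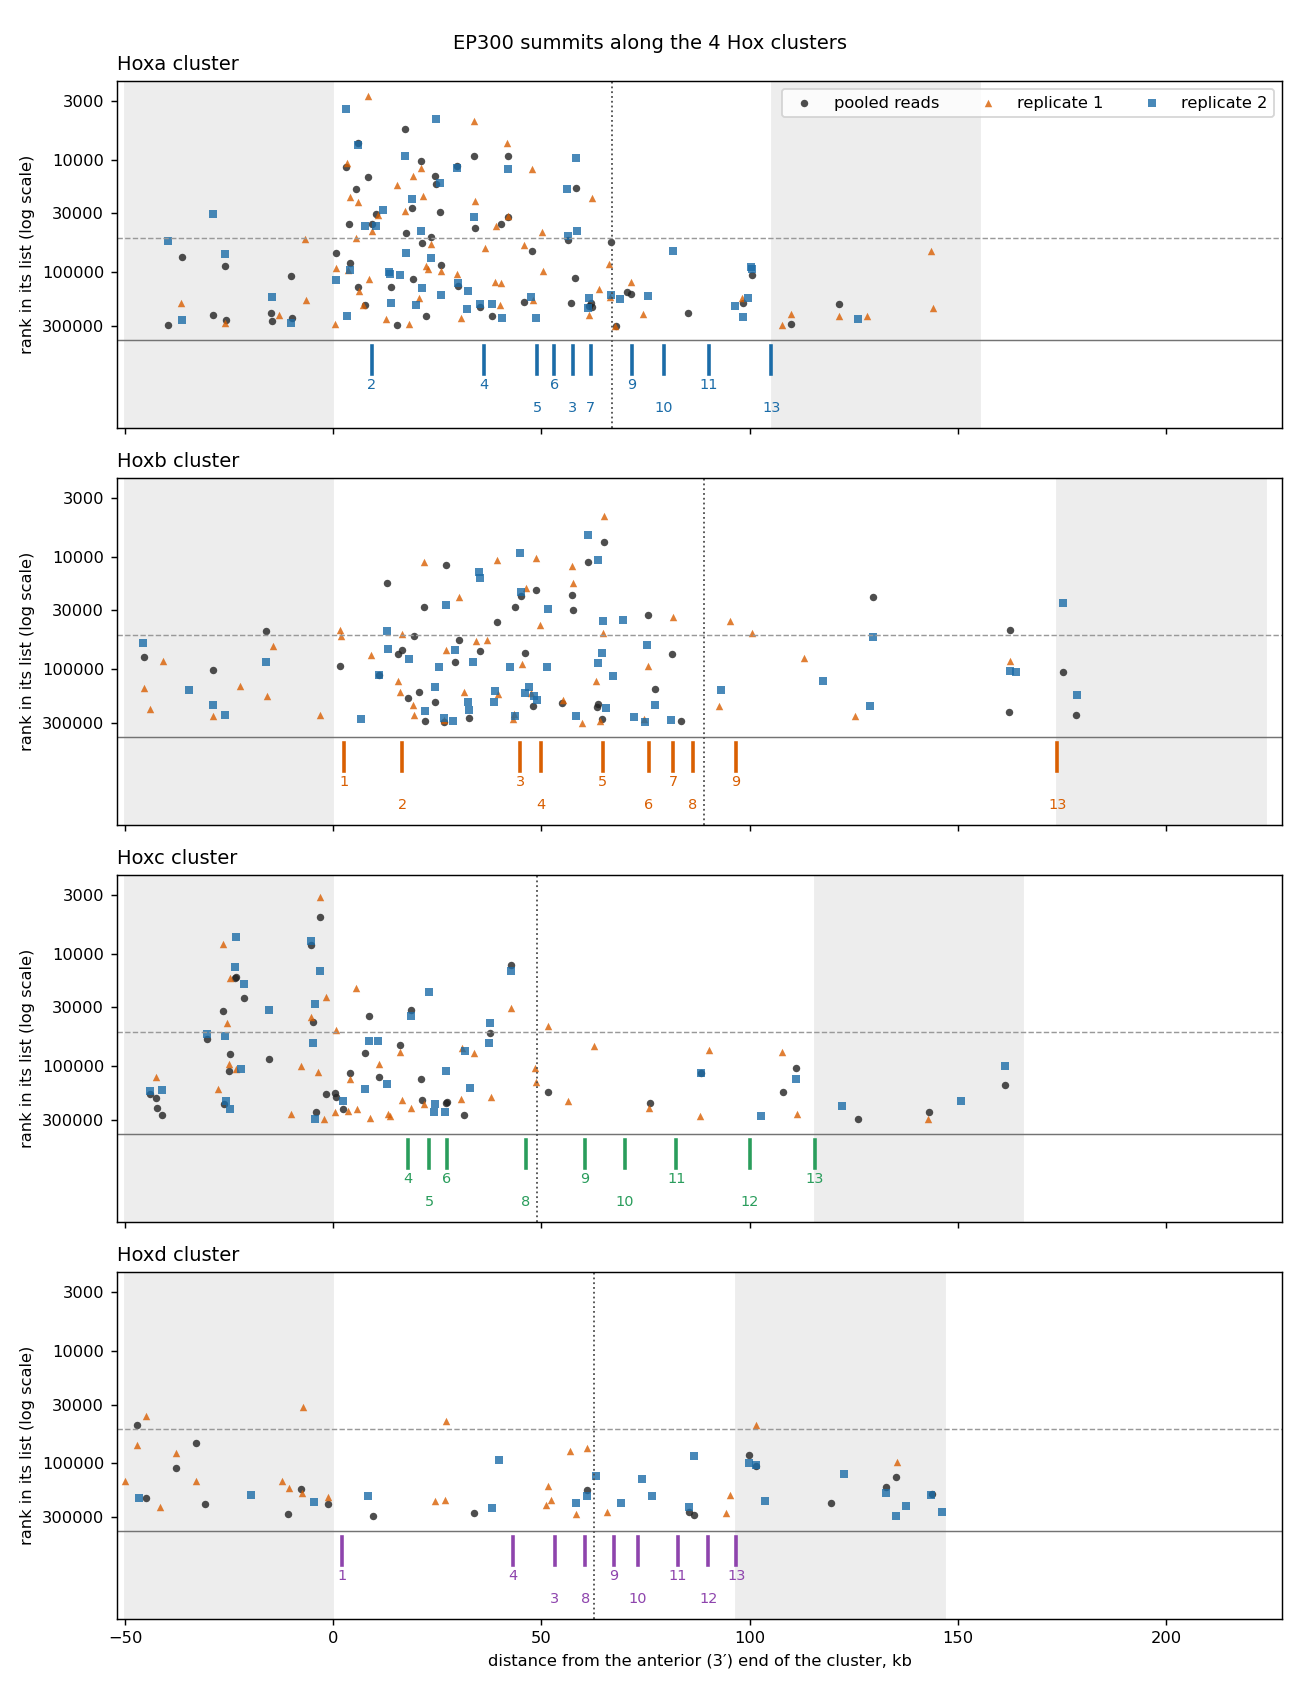
Rank (log scale, strong at the top) of each EP300 summit against its distance in kb from the anterior end of its cluster, for the pooled list and both libraries; grey bands are the 50 kb flanks, coloured ticks the 5′-most coding transcript start of each gene but 1 of Hoxa with its paralogue number, the dotted line the border of groups 8 and 9, and the dashed line rank 50000. Summits fill the anterior parts of Hoxa and Hoxb and the anterior part and flank of Hoxc, while Hoxd has 5 pooled summits inside the cluster.

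By position, the anterior parts of the clusters held 98 pooled summits in 268 kb, a density of 36.6 per 100 kb, and the posterior parts held 16 in 224 kb, or 7.14 per 100 kb. The mean over named chromosomes was 11.3 per 100 kb in each of the 3 long lists. In replicate 1 the anterior and posterior densities were 41.5 and 9.37, and in replicate 2 they were 38.9 and 10.3. Summed over the clusters, the anterior parts were thus above, and the posterior parts below, the mean of the chromosomes in all 3 lists. Among the 50000 strongest summits the pooled densities were 13.8 and 0.892 per 100 kb, with a mean of 1.89 over the chromosomes. The flanks on the anterior side held 19.0 pooled summits per 100 kb and those on the posterior side 6.50.

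Base composition differed between the parts in ways that varied by cluster. Summed over the clusters, the anterior parts had 49.4% GC, 24.6 CpG dinucleotides per 1000 bp and 16.0% repeat-masked sequence, the posterior parts 49.1%, 24.0 and 20.8%, and the named chromosomes 41.7%, 8.26 and 36.4%. From the anterior to the posterior part, CpG went from 25.0 to 16.6 per 1000 bp in Hoxb, but from 28.0 to 33.1 in Hoxa, from 19.1 to 23.2 in Hoxc and from 24.8 to 34.1 in Hoxd. Repeat-masked sequence went from 18.4% to 31.2% in Hoxb and differed by less than 2 percentage points in the others. The part of base composition in the densities was not tested. The strong pooled summits inside the clusters had 47.2% GC within 50 bases, with 44.7% at all pooled summits up to rank 50000, and 21.8 CpG per 1000 bp, with 18.0. In replicate 1 these were 46.8% with 45.6% and 22.5 with 18.8, and in replicate 2 they were 50.8% with 43.5% and 30.6 with 16.0.

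**Figure D3:**
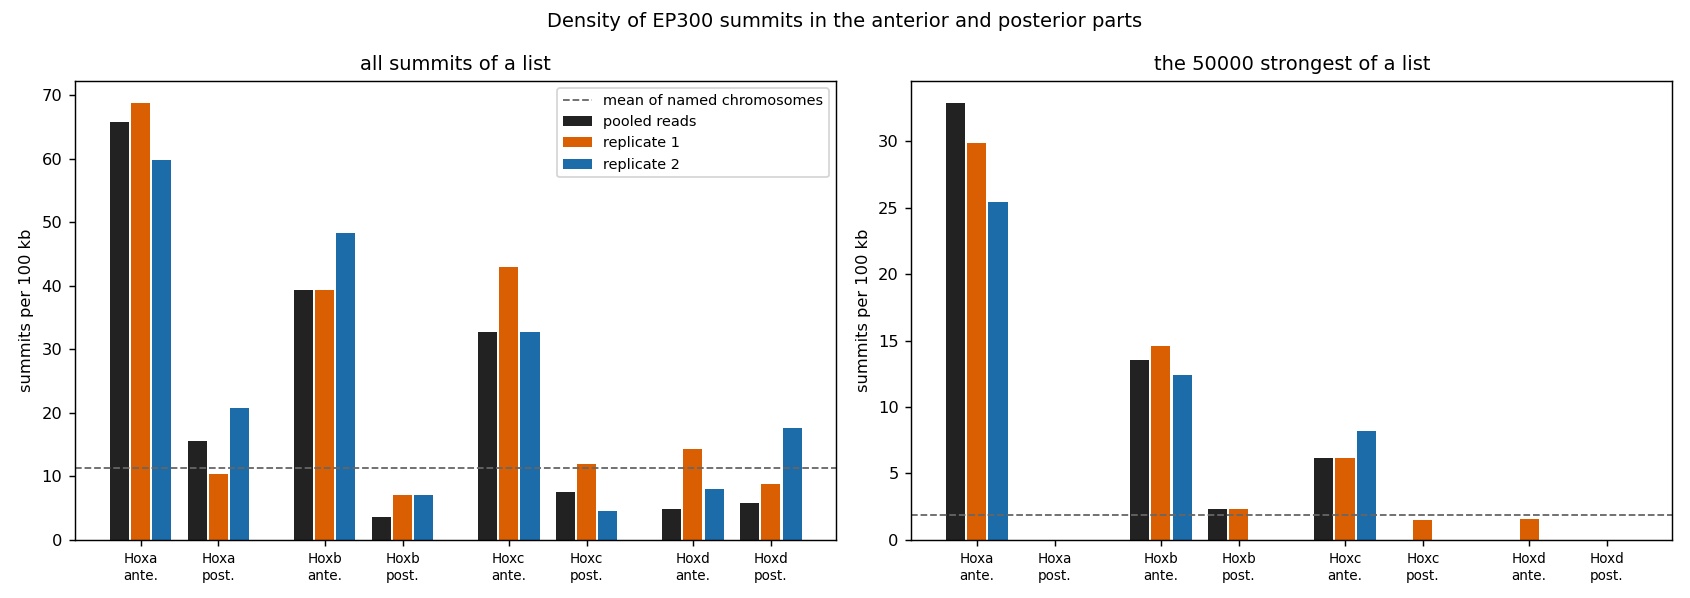
EP300 summits per 100 kb in the anterior (ante.) and posterior (post.) part of each Hox cluster, for all summits of each list (left) and for its 50000 strongest (right); bars are the pooled list and both libraries, and the dashed line is the mean over named chromosomes in the pooled list. The anterior parts of Hoxa, Hoxb and Hoxc stand above the line in every list, and the anterior part of Hoxd does not.

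Hoxa was the most densely marked cluster. Its anterior part held 65.8 pooled summits per 100 kb (68.8 in replicate 1, 59.8 in replicate 2) and its posterior part 15.6 (10.4 and 20.8). All 22 of its strong pooled summits (rank up to 50000) lay in the anterior part. The highest (chr6:52172633-52173192) stood in an intron of Hoxa3, a gene of the third pharyngeal arch and the thymus. It also lay in an intron of Gm28308 and within the antisense gene Gm15050. The nearest protein-coding start was that of 5730596B20Rik, at 4585 bp, and the nearest Hox start that of Hoxa2, at 8082 bp. The signal of this summit was 27.8 in the pooled list (rank 5368), 9.53 in replicate 1 (rank 28545) and 12.5 in replicate 2 (rank 9357), and it was in neither IDR set.

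The next, 3376 bp from the start of Hoxa2 (chr6:52161175-52161734), is the strongest pooled summit within 5 kb of that gene. It had 25.0 (rank 7035), 10.01 (rank 23954) and 13.6 (rank 7365), and was thus higher in replicate 2 than in replicate 1, as was the summit in the intron of Hoxa3. The third, 2289 bp downstream of the Hoxa4 start (chr6:52189184-52189743), had 22.6 (rank 9210), 17.2 (rank 4529) and 8.80 (rank 32202), and was higher in replicate 1.

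For single Hoxa genes, the best pooled ranks within 5 kb were 7035 for Hoxa2, the selector of the second pharyngeal arch, and 11267 for Hoxa3, 9210 for Hoxa4, 64139 for Hoxa5, 51329 for Hoxa6 and 17972 for Hoxa7. Hoxa5, a regulator of lung and stomach mesenchyme, was the lowest of the anterior Hoxa genes in the pooled list and in replicate 2 (rank 166936), while in replicate 1 it stood at 12094 and Hoxa6 was the lowest at 44266. Of the posterior genes, Hoxa9 stood at 53876, Hoxa10, a gene of the uterus, at 227898 and Hoxa13 at 105004. Hoxa11 had no summit within 5 kb in the pooled list or in either library. The ranks of the anterior Hoxa genes ranged from 2721 to 44266 in replicate 1 and from 3554 to 166936 in replicate 2, and those of the posterior genes with a summit from 84097 to 235178 and from 64496 to 159924. The ranges of the anterior and posterior genes therefore did not overlap in replicate 1 and overlapped in replicate 2 through Hoxa5, and in the pooled list through Hoxa5 as well.

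Antisense genes run through much of the anterior part of Hoxa, and many of its summits fell in them. Hoxaas3, which runs through the Hoxa3 to Hoxa7 interval (chr6:52175217-52215076), held 23 pooled summits, 12 of them strong, with 23 in replicate 1 and 22 in replicate 2. Over all clusters, 23 of the 39 strong pooled summits lay in a non-coding gene. By annotation of protein-coding genes, 18 of the 39 were in introns, 14 intergenic, 5 on UTR exons, 1 on a coding exon and 1 on another exon, and 10 of them lay within 1 kb of a protein-coding start. The same shares over all strong pooled summits were not counted, so whether the Hox summits differ from them is unknown. ChIP-seq peaks have no strand, so a summit in an antisense gene cannot be assigned to it or to the Hox gene it overlaps.

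Hoxb held 39.3 pooled summits per 100 kb in its anterior part (39.3 in replicate 1, 48.3 in replicate 2) and 3.53 in its posterior part (7.06 and 7.06). Its strongest was the optimal peak at Hoxb5. The next, 3504 bp downstream of the Hoxb5 start (chr11:96306736-96307295), had a signal of 20.9 (rank 11130) in the pooled list and 14.2 (rank 6459) in replicate 2, and no summit in replicate 1. The third, in an intron of Hoxb3 within the antisense gene Gm11536 (chr11:96340981-96341540), had 20.4 (rank 11924), 7.58 (rank 67896) and 9.20 (rank 27020). These 3 peaks near Hoxb5 and Hoxb3 thus had unequal support in the libraries, the first stronger in replicate 1 and the others in replicate 2.

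The best pooled ranks within 5 kb were 93449 for Hoxb1, a gene of the fourth rhombomere, 17162 for Hoxb2, 11924 for Hoxb3 and 19923 for Hoxb4, known for expanding blood stem cells. They were 7399 for Hoxb5 and Hoxb6 and 72595 for Hoxb7 and Hoxb8, each pair sharing a peak. Hoxb1, at the far 3′ end of the cluster, was thus the lowest of the anterior Hoxb genes in the pooled list, while Hoxb2 was the lowest in replicate 1 (rank 48198) and Hoxb8 in replicate 2 (rank 279288). Of the posterior genes, Hoxb9 had no pooled summit but ranks of 37037 in replicate 1 and 154002 in replicate 2. Hoxb13, a gene of the prostate, had rank 106265 in the pooled list and 25593 in replicate 2 and none in replicate 1. Both strong pooled summits of the posterior part of Hoxb lay in the wide interval between Hoxb9 and Hoxb13 and were over 5 kb from any Hox start.

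Hoxc held 32.7 pooled summits per 100 kb in its anterior part (42.9 and 32.7 in replicates 1 and 2) and 7.49 in its posterior part (12.0 and 4.49). Its anterior flank was as dense as the anterior part itself, with 36.0 per 100 kb (28.0 and 32.0), and held 7 of the 10 strong pooled summits of the Hoxc window. After the conservative peak described above, the strongest there lay 7775 bp downstream of Hoxc4 (chr15:103041890-103042449), with 23.4 (rank 8430), 8.91 (rank 36720) and 13.4 (rank 7716). The Hoxc flank was the only flank with over 1 strong pooled summit, since the anterior flanks of Hoxb and Hoxd had 1 each and the other 5 flanks 0.

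Inside Hoxc, the strongest summit lay 3649 bp downstream of Hoxc8, a gene of thoracic vertebrae and brachial motor neurons (chr15:102993976-102994535). It had 19.97 (rank 12545), 9.41 (rank 30040) and 10.9 (rank 14344), so that it was strong in both libraries. Hoxc4 and Hoxc5 shared a summit 789 bp upstream of Hoxc4 at rank 31271, with rank 35597 in replicate 2 and 235857 in replicate 1. Hoxc6 had its best pooled summit 47 bp from its start at rank 208574, but ranks of 68779 and 21813 in replicates 1 and 2 from other summits. Of the posterior genes only Hoxc13, known from hair follicles, had a pooled summit, at rank 103355. Hoxc10 and Hoxc11 had none in any list within 5 kb, Hoxc9 only in replicate 1 (rank 65394) and Hoxc12 only in replicate 2 (rank 275076).

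Hoxd differed in pattern from the other 3 clusters, since its anterior part was as sparse as its posterior part. The anterior part held 4.78 pooled summits per 100 kb (14.3 in replicate 1, 7.97 in replicate 2) and the posterior part 5.86 (8.80 and 17.6). Neither part was on the same side of the chromosome mean of 11.3 in all 3 lists. The cluster held 5 pooled summits, none within rank 50000, and the highest lay 478 bp upstream of Hoxd8 in the antisense gene Hoxd3os1 (chr2:74703857-74704416). Its signal was 9.24 (rank 172701) in the pooled list, 7.46 (rank 72419) in replicate 1 and 5.37 (rank 194478) in replicate 2.

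The best pooled ranks within 5 kb were 231384 for Hoxd1, 277380 for Hoxd3 and Hoxd4, which share a peak, and 172701 for Hoxd8. The 4 anterior Hoxd genes thus had a median signal of 8.16, against 20.8 for the 7 of Hoxa, 17.3 for the 8 of Hoxb and 14.7 for the 4 of Hoxc. In replicate 1 these medians were 6.51, 12.3, 11.0 and 8.48, and in replicate 2 they were 5.31, 12.4, 8.27 and 9.72, so that Hoxd was the lowest in every list. The exception in replicate 1 was Hoxd3, with 8.61 (rank 41688), which had no summit in replicate 2. Of the posterior genes, Hoxd13, a gene of the digits, had the best pooled rank of the cluster's genes, 83781, from a summit 3074 bp upstream and outside the cluster (chr2:74664956-74665515). Its signal was 11.3 in the pooled list and 6.54 in replicate 2, and replicate 1 had no summit there. The strongest pooled summits of the Hoxd window lay in the anterior flank, far from the cluster. They stood 49319 bp (chr2:74812019-74812578) and 35223 bp (chr2:74797923-74798482) from Hoxd1 and nearer to Mtx2, with signals of 13.2 (rank 45636) and 12.0 (rank 66279) in the pooled list, 7.58 and 6.17 in replicate 1 and no summit in replicate 2. Hoxd11 and Hoxd12 shared a peak at rank 270911. The Hoxd anterior part had 48.7% GC, 24.8 CpG per 1000 bp and 14.7% repeat-masked sequence, close to the values of the anterior parts as a whole.

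The 2 libraries differed at single Hox summits about as much as elsewhere in the genome. Of the 39 strong pooled summits inside the clusters, 23 (59.0%) had a summit of both libraries inside the peak, 8 of replicate 1 only and 8 of replicate 2 only, while over all named chromosomes 63.4% had both. Hoxa had both for 15 of 22, Hoxb for 5 of 14 and Hoxc for 3 of 3. The other 9 of Hoxb and 7 of Hoxa had a summit of 1 library only. Of all 114 pooled summits in the clusters, 44 had both. Overlapping pooled peaks can hold the same summits, and these 44 come from 37 distinct pairs of library summits. Across the 37 pairs, which were selected for sharing a pooled peak, the log2 signals of the libraries had a Pearson r of 0.31 and a Spearman rho of 0.29, given as a description. By gene, 17 members ranked higher in replicate 1 and 19 in replicate 2, with 3 in neither, and the ranks of 12 (30.8%) differed by over 4 times, as did those of 27.1% of all protein-coding genes. The order of single genes within a class thus changed between the libraries.

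**Figure D4:**
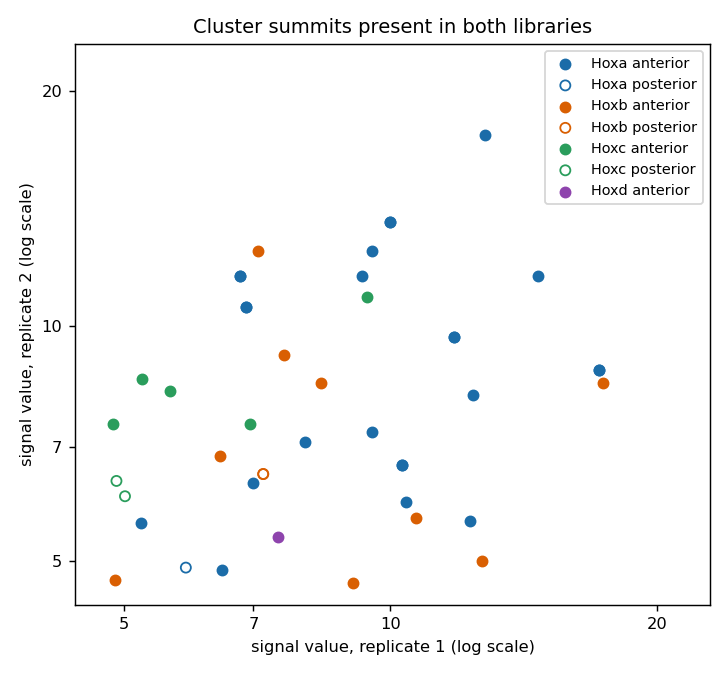
Signal value of replicate 1 against replicate 2 (log scales) for the 44 pooled summits inside the Hox clusters that hold a summit of both libraries; colours mark the cluster, and filled and open circles the anterior and posterior parts. Pooled peaks that overlap can share a point, so that 37 distinct pairs are drawn (Spearman rho 0.29), and the few posterior points lie below a signal of 8 in both libraries.

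Retinoic acid response elements were searched as direct repeats of a half-site (AGGTCA or one of 3 variants of it, on either strand) with 2 or 5 bases between, called DR2 and DR5. The 4 windows held 9 DR5 and 5 DR2 matches, of which 3 had a pooled summit within 280 bp. At Hoxb3 the DR5 element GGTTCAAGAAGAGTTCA (chr11:96341236-96341252), printed in capitals above, lay 9 bp from the summit of rank 11924. The others were a DR5 match in the anterior flank of Hoxc (best rank 77842) and a DR2 match in the anterior flank of Hoxa (rank 107300). Among the strong cluster summits of the pooled list, 1 of 39 held a DR5 match within 50 bases (2.56%), and among all pooled summits up to rank 50000 the share was 0.0380%. In replicate 1 the count was 0 of 40 and in replicate 2 it was 1 of 32, so the share rests on 1 element. A match describes letters only.

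The other motifs gave small counts at the Hox summits. The HOX-PBX motif TGATNNAT was at 5 of 39 strong pooled summits (12.8%) and at 5.94% of all pooled summits up to rank 50000. In replicate 1 it was at 6 of 40 (15.0%, with 5.55% of all) and in replicate 2 at 1 of 32 (3.12%, with 6.10%), so its position relative to the background turned between the libraries. The CTCF core CCCTC was at 28.2% of the Hox summits and 20.7% of all in the pooled list, at 35.0% and 21.9% in replicate 1, and at 31.2% and 19.5% in replicate 2. The homeobox motif TAATTA was at 1 of 39 (2.56%, with 3.80% of all), and the MEIS motif TGACAG at 2 of 39 (5.13%, with 7.12%), in the pooled list. In replicate 1 TAATTA was at 4 of 40 (with 3.30% of all) and in replicate 2 at 0 of 32 (with 4.01%). The position of TAATTA relative to the background thus also turned between the libraries. TGACAG was at 2 of 40 in replicate 1 (with 7.30% of all) and at 0 of 32 in replicate 2 (with 6.79%), below the background in both.

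Related genes were described by the same measure, the share with a pooled summit of rank up to 50000 within 5 kb, for lists of other homeobox genes and of Hox regulators. These other homeobox genes were closer to the posterior than to the anterior Hox genes. Of 8 ParaHox and Evx genes, the nearest relatives of the Hox clusters, 0 had such a summit, and Cdx1, Cdx2 and Evx1 had no summit within 5 kb in any of the long lists. Evx2, next to Hoxd13, had rank 104568. Of 18 genes of the Irx, Dlx and sine oculis families, many of which also stand in clusters, 3 had one (16.7%), namely Six5, Six2 and Dlx4.

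The Hox cofactors and regulators stood higher than the homeobox lists above. Of 9 TALE cofactors 7 had such a summit (77.8%), all but Meis3 and Pbx4, with pooled signals of 34.6 for Meis1, 32.9 for Pknox1 and 30.0 for Pbx2. Meis1 and Pknox1 were the 2 with an optimal summit within 5 kb. Of 14 Polycomb genes 11 had one (78.6%), led by Pcgf2 (44.9) and Phc1 (41.4), and of 8 trithorax and co-activator genes 7 (87.5%), led by Rbbp5 (93.1) and Ash2l (57.5). The retinoic acid list had 6 of 12. Its receptors ran from Rxrb (85.3), Rarg (30.8) and Rara (26.4) down to Rxrg (9.87). The enzymes of the retinoic acid list ran from Cyp26b1 (24.2) down to Aldh1a2 (8.30), with no pooled summit for Cyp26a1, so receptors and enzymes overlapped. No Hox gene reached the signal of Rara, since the highest within 5 kb of a Hox start was 25.0. The tissue label was checked in the optimal set: 6 of 6 smooth muscle markers, 3 of 6 gastric epithelial markers and 2 of 3 squamous forestomach markers had an optimal summit within 50 kb, against 36.4% of all protein-coding genes. Within 5 kb the counts were 4, 0 and 1, against 14.0% of all genes, so that no gastric epithelial marker had one there. Whole stomach mixes these cells, and a low signal from many cells and a high signal from few cannot be told apart.

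**Figure D5:**
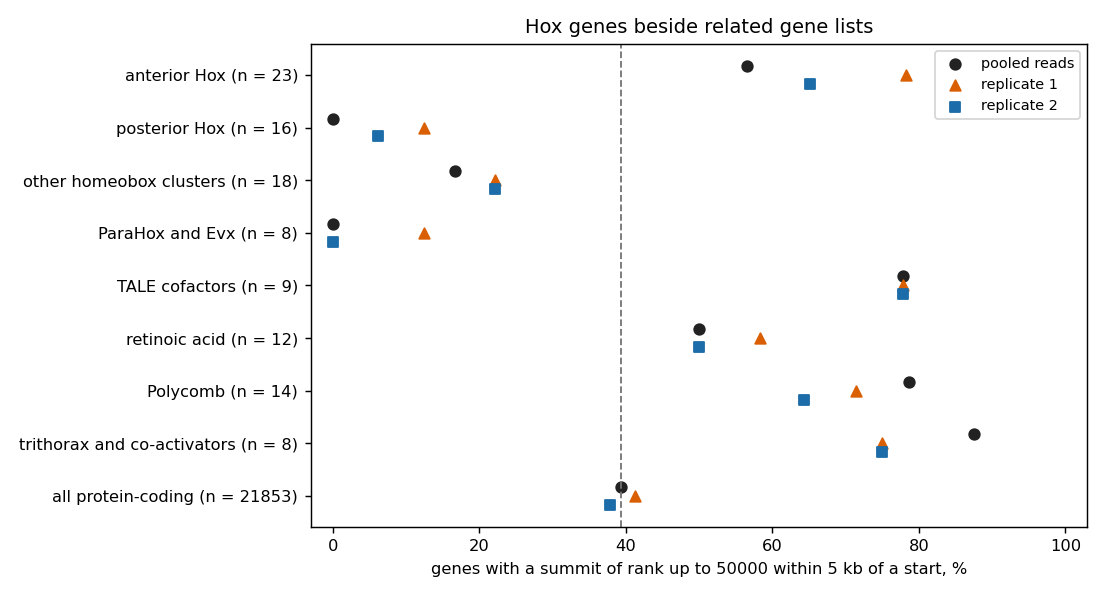
Share of genes (%) with an EP300 summit of rank up to 50000 within 5 kb of a start, for anterior and posterior Hox genes, related gene lists and all protein-coding genes; symbols are the pooled list and both libraries, and the dashed line is the pooled share of all protein-coding genes, 39.3%. Posterior Hox genes and the other homeobox lists lie to the left of the line, and anterior Hox genes, TALE cofactors and Hox regulators to its right.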

How the data were processed

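EP300 ChIP-seq of 2 libraries in 1 group was analysed from 5 deposited peak lists on mm10: a list for each replicate, a pooled list, and an optimal and a conservative IDR set. The signal of a peak is the value the authors deposited, and the scales of the lists differ. The IDR sets also carry a score deposited by the authors, and summits are deposited as a distance in bp behind the start of the peak, a further unit. Per the labels' readme texts, both alignments and a pair of further files stood behind the pooled list, and the IDR sets drew on the pooled and replicate lists. Aligner, peak caller and versions: not given in the sources used here. Depth is unknown, so no interval that needs it is given. Columns of values mapped to no sample numbered 0.

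Genes and transcripts came from GENCODE release M21 and sequence from the RefSeq genome GRCm38.p6, in which all 39 Hox genes overlapped their RefSeq records. A cluster runs from the first to the last base of its Hox genes, and its parts meet midway between the neighbouring genes of groups up to 8 and from 9. Coordinates count from 1. A gene's value is its strongest summit within 5 kb of any protein-coding start. A gene without a summit entered medians at the list's lowest signal. Motifs were searched on both strands within 50 bases of a summit. The counting scripts were tested on simulated data and used Python 3.11.15, numpy 2.4.6, pandas 2.3.3, scipy 1.17.1 and matplotlib 3.10.9.

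The members and gene lists were chosen with earlier results of these data known, and neighbouring genes share summits, so no p-value is given. By rule, values in every list are printed for members with a peak of an IDR set within 5 kb or with the strongest pooled summit of their cluster, and for the 3 strongest pooled summits of each window. Other members, and the related genes given with values, were chosen after their values were seen. The alternatives were other peak sets, distances, starts, flanks and group borders, and leaving out a replicate or a cluster. The start of the coding sequence and both IDR sets together were added after seeing the data. Some members, sequences and related genes are not reported here.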

Additional observations from a re-analysis of the deposited data

How the results depend on the processing

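The alternatives were run on 6 results: 3 counts of the optimal set, the anterior minus posterior share, and the differences of median signal and rank. None of the 3 differences reversed in sign, although that of the shares went to 0 under 4 settings. The 3 counts cannot turn in sign, and they are small and moved with most settings. The count of Hox genes with an optimal summit within 5 kb, 2 as reported, was 1 in the conservative set, within 1 kb, with the nearest start up to 50 kb and with the start of the gene record. It was 0 in the stronger part of the optimal set, 4 for the strongest pooled peaks, 8 within 50 kb, and 4 when either replicate was left out. Leaving out a replicate leaves no IDR set, so those values are for the 7737 strongest unfiltered peaks of the remaining library. The same holds for the other counts and for the share. The anterior minus posterior share, 8.70 percentage points, rests on 1 peak. It was 4.35 in the conservative set, within 1 kb, with the nearest start and with the gene record, and 0 in the stronger part of the optimal set, for groups 1 to 4 or 1 to 3 as anterior and without Hoxb. It was 17.4 for the strongest pooled peaks and 17.4 without either replicate, 24.2 within 50 kb, 12.5 without Hoxa, and 10.5 without Hoxc or without Hoxd. Optimal summits in the windows numbered 1, against 3 in the conservative set, 0 in the stronger part, 4 for the strongest pooled peaks and for both IDR sets together, 2 with 100 kb flanks, and 5 to 6 without a replicate. Inside the clusters they numbered 1, against 2, 0, 3 for the strongest pooled peaks, 3 for both sets together, and 4 without either replicate.

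The anterior minus posterior median log2 signal, 0.91, was 0.55 to 0.93 without a replicate, the lower value from replicate 2 alone. It was 0.27 within 1 kb, 0.63 with the nearest start, 1.28 for groups 1 to 3 and 1.19 without Hoxd. The log2 rank difference, -3.19, was -2.06 to -3.19 without a replicate, -0.80 within 1 kb, -2.26 with the nearest start, -4.32 for groups 1 to 3 and -4.06 without Hoxd. The other 7 alternatives of each gave 0.77 to 1.15 for the signal and -3.95 to -2.65 for the rank. Among results given only by list, the share of Hox genes with a summit up to rank 50000 lay below the background in the pooled list and above it in both libraries, and the order of the parts of Hoxd turned in replicate 1. The cause of these shifts was not tested. No paired analysis was possible because there is 1 group and no test.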
